A study of Mus musculus with 70 samples.

Results

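The response of C3H dorsal root ganglia to axotomy was measured on 8 of the 70 labelled arrays of a study of 9 mouse strains, chosen by their titles alone. Of these 8 arrays, 4 held injured ganglia (labelled C3H AX5D, here axotomy ganglia) and 4 held uninjured ganglia (C3H NAIVE, naive ganglia). Axotomy is the cutting of axons, and AX5D was read as 5 days after it. Each sample was total RNA from 6 ganglia of 3 mice, so 1 array stands for a pool of animals, and the labels call the replicates biologically distinct. Neither the C3H substrain nor the nerve that was cut is given in the sources used here, and age and sex are not either. The other 8 strains contributed 62 arrays, 4 AX5D and 4 NAIVE for 129, C57, CAST, DBA, NOD, NZO and WSB, and 3 of each for AJ. Biotinylated cRNA was hybridised to Illumina arrays, and the intensity of each probe was put on a normalized log2 scale, called its level here. The response of a gene is its mean level in axotomy ganglia minus its mean level in naive ganglia. It was tested for 11815 genes with limma, and a gene was called where the p-value adjusted over all genes was below 0.05.

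Dorsal root ganglia hold the cell bodies of the sensory neurons that carry touch, position, temperature, itch and pain. When the peripheral axon is cut, these neurons are known to switch on transcription factors such as Atf3 and Jun, growth-associated proteins and a set of neuropeptides, and to lower many channels and receptors used in signalling, while macrophages gather around them. A separate system, the interferon pathway, turns on antiviral genes in almost any cell type: signals from interferon receptors act through a short DNA element in the promoters of many of its targets. In ganglion RNA, fewer cells of a type and less RNA per cell cannot be told apart.

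The 8 C3H arrays had median intensities between 284 and 392 and between 13741 and 14372 probes above background, within the ranges of 253 to 392 and 13147 to 14721 over all 70 arrays. Over the 8 arrays, in axotomy and naive ganglia together, the summed intensity (all sums are in units of 1000 intensity) was 115 to 151 for sensory neuron markers, 70.2 to 100.4 for Schwann cell markers and 42.1 to 47.9 for satellite glia markers. Axotomy replicate 2 stood apart. Its summed level of 12 neutrophil markers was 34.1, against 5.40 to 9.52 on the other 3 axotomy arrays and 4.06 to 10.8 on the naive arrays. Its level of the red cell anion transporter gene Slc4a1 was 10.62, against 7.99 to 8.26 on the other axotomy arrays. Its sum of 4 sex-linked transcripts was 1.33, against 2.47 to 3.87 on the other axotomy arrays and 2.22 to 3.29 on the naive arrays. On axotomy arrays of the other strains that sum was 0.29 to 1.92, a range that holds replicate 2. Sums of 14 skeletal muscle markers were 7.85 and 7.28 on axotomy replicates 2 and 4 and 5.21 on naive replicate 2, against 1.02 to 2.62 on the other 5 arrays. Results that rest on replicate 2 are therefore given without it as well.

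Axotomy changed 3211 of 11815 genes in C3H ganglia (27.2%), of which 1516 were higher (12.8%) and 1695 lower (14.3%). The rises reached further than the falls: 471 of the higher genes rose at least 2-fold and 142 at least 4-fold, against 191 and 2 of the lower genes. The 4 axotomy arrays lay wholly above the 4 naive arrays for 1326 genes (11.2%) and wholly below them for 1515 (12.8%). The median response of all genes was −0.04. Without axotomy replicate 2, 2840 genes were called, 2689 of them among the 3211.

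Npy, the gene of neuropeptide Y on chromosome 6, had the highest response of the genes named by rule. Its levels were 13.57, 13.85, 13.41 and 13.64 in axotomy ganglia, against 6.09, 5.35, 5.53 and 5.80 in naive ganglia. The groups did not come near each other, and only 1 of the 4 naive arrays was above background. The response was 7.92 on the log2 scale (SE 0.27, 243-fold, adjusted p 4.42e-34). Gal, which encodes the neuropeptide galanin, had levels of 15.13, 14.69, 14.81 and 15.16 in axotomy ganglia, against 9.73, 9.98, 10.03 and 9.33 in naive ganglia. The axotomy arrays again lay in a narrow band far above all naive arrays, with a response of 5.18 (SE 0.23, 36.2-fold, adjusted p 1.46e-28). Cckbr, the brain-type receptor of the peptide cholecystokinin, was at 12.14, 12.29, 12.08 and 12.23 in axotomy ganglia, against 5.17, 5.14, 5.11 and 5.05 in naive ganglia, where it was below background on every array. Its rise was therefore at least 77.3-fold (log2 7.07, adjusted p 2.31e-46).

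The transcription factor gene Atf3 on chromosome 1, a standard marker of axotomized neurons, was at 12.61, 12.67, 12.87 and 12.77 in axotomy ganglia, against 6.80, 6.36, 7.53 and 6.32 in naive ganglia. All 8 arrays were above background and the groups were separated by more than 5 log2 units. The response was 5.98 (SE 0.19, 63.0-fold, adjusted p 5.86e-36). Sprr1a, a small proline-rich protein of cornified skin that regrowing neurons also make, was at 12.84, 12.36, 12.34 and 12.87 in axotomy ganglia, against 7.502, 6.50, 6.71 and 5.74 in naive ganglia. The lowest axotomy array exceeded the highest naive array, and the response was 5.99 (SE 0.31, 63.6-fold, adjusted p 6.72e-25). Other genes among the 12 highest were Ecel1, a membrane endopeptidase of injured neurons (at least 53.1-fold), Wfdc3, a whey acidic protein-domain gene (at least 56.1-fold), the orphan receptor gene Gpr151 (log2 6.03), the serotonin transporter gene Slc6a4 (log2 5.60, above background on 1 naive array) and Lipn, a lipase gene of keratinocytes (at least 18.9-fold). The last members, the chemokine Ccl8 and the stefin Cstdc4, are described with the differences between strains.

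**Figure D1:**
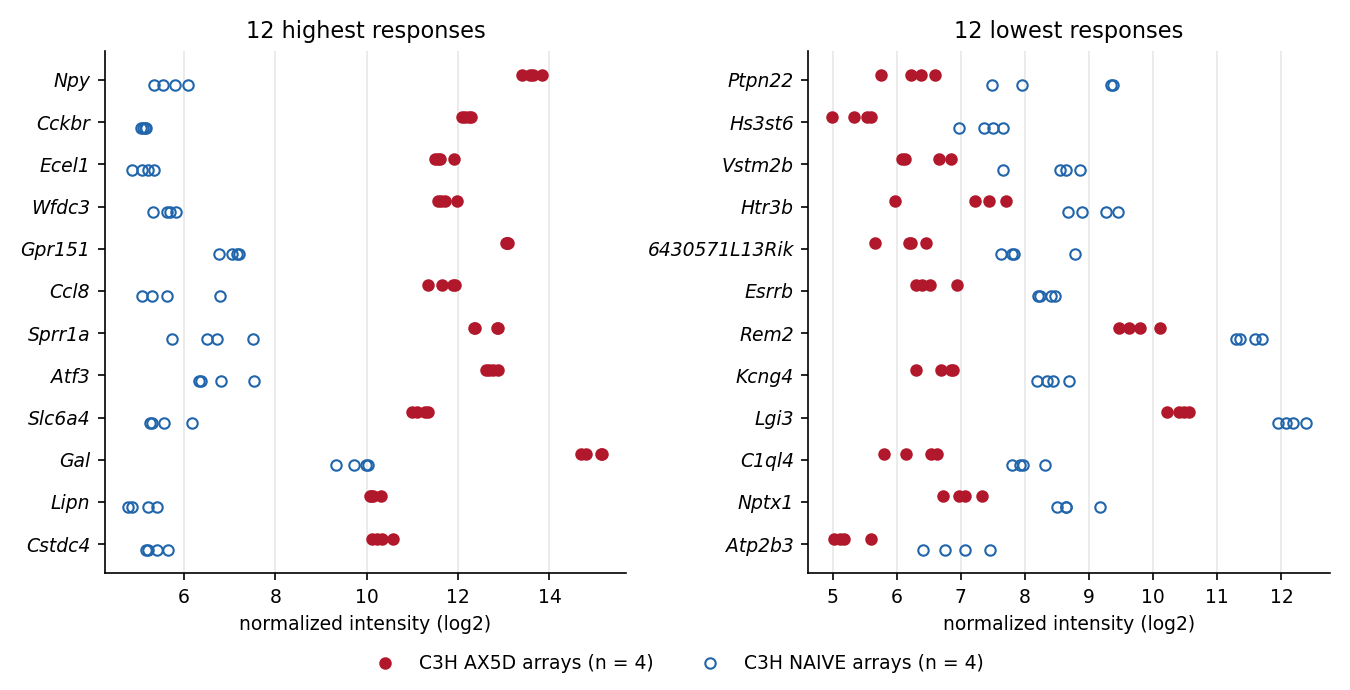
Normalized log2 intensities of the 24 genes with the most extreme C3H responses chosen by rule, 12 that rose and 12 that fell, on each of the 4 axotomy arrays (AX5D) and the 4 naive arrays. In every gene shown the axotomy points lie wholly to one side of the naive points, with Npy at 7.92 and Ptpn22 at −2.30 as the extremes.

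AP-1 is the DNA-binding complex of Jun, Fos and Atf proteins. Of the C3H genes that rose, 91 of 1153 with a RefSeq promoter window (7.89%) held the AP-1 letters TGACTCA or TGAGTCA, both strands being covered by these spellings, against 64 of 1374 that fell (4.66%) and 5.95% of 27025 promoter windows of all genes. The windows run from 250 bases before to 50 after each start. The related CRE letters TGACGTCA stood in 2.60% of the promoters of genes that rose, 4.29% of those that fell and 2.03% of all. Among the 9515 windows of the genes tested, the AP-1 letters stood in 5.28% and the CRE letters in 3.28%. The CRE share of the genes that rose thus lay below that of the genes tested. Of the genes above, Sprr1a is shown because its window held the AP-1 letters at 2 places, 146 and 116 bases before the start. The windows of Atf3, Jun, Gal and Npy held none of these letters. The bases up to the start of Sprr1a, on the minus strand at chr3:92485882-92486047 of GRCm38.p6 from RefSeq, are given 5′ to 3′ with the AP-1 letters in capitals.
Sprr1a: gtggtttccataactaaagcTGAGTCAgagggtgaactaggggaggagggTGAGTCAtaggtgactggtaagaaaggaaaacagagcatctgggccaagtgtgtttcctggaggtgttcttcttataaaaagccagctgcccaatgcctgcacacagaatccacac

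Regeneration-associated genes rose almost throughout: 28 of 33 measured members were higher, against 12.8% of all genes, and none was lower, with a median response of 1.55. The list was drawn up knowing that such genes rise in these ganglia and is no independent evidence of that. Gadd45a, a stress-response gene, rose by 3.14 (SE 0.09, adjusted p 2.68e-37), the growth cone protein gene Gap43 by 1.39 (SE 0.19, adjusted p 1.38e-08) and Cacna2d1, the calcium channel subunit bound by gabapentin, by 1.79 (SE 0.17, adjusted p 6.96e-14). Injury-related transcription factors rose in 13 of 26 members and fell in none (median 0.36). Nfil3, a repressor of the bZIP family, rose by 1.97 (SE 0.12) and Jun by 1.11 (SE 0.08), both with all axotomy arrays above all naive arrays. Immediate early genes rose in 6 of 9 (median 0.60), among them Fos at 1.16, the phosphatase gene Dusp1 at 0.60 and Zfp36, whose protein promotes mRNA decay, at 1.18.

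Neuropeptide genes moved in both directions, with 8 of 15 higher and 5 lower (median 0.68), against 12.8% and 14.3% of all genes. Beside Npy and Gal, the corticotropin-releasing factor relative Ucn rose at least 6.70-fold, while Tac1, the precursor of substance P, fell by 0.61 (adjusted p 2.15e-05). In the TGF-beta and activin list 12 of 27 were higher and 4 lower (median 0.09). Follistatin (Fst), which binds and blocks activin, rose by 3.90 (SE 0.21, 14.9-fold, adjusted p 7.36e-24), and the activin subunit gene Inhbb by 2.62 (SE 0.23, adjusted p 3.98e-15). Inhba, the subunit of activin A, was at 6.57, 6.77, 6.27 and 6.22 in axotomy ganglia, against 5.69, 5.78, 6.000 and 5.51 in naive ganglia. These ranges lay close together, 1 naive array was above background, and the response was 0.71 (SE 0.23, adjusted p 0.0146). That call did not hold without axotomy replicate 2, or without naive replicate 4 (highest adjusted p 0.0689). Among cytokines and receptors of the gp130 family, through which Il6 and Lif signal, 4 of 14 rose and none fell (median 0.16). Their feedback inhibitor Socs3 rose by 1.55 (SE 0.16, adjusted p 3.53e-12).

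Channels and receptors of mature sensory neurons fell. Of 28 voltage-gated channel genes 20 were lower and 1 higher (median −0.71), against 14.3% and 12.8% of all genes, the one that rose being Cacna2d1. Kcna2, a potassium channel of the nodal region, fell by 1.25 (SE 0.12, adjusted p 9.37e-14) and the modulatory subunit Kcng4 by 1.74 (SE 0.19, adjusted p 1.95e-11). Of 17 nociceptor and itch receptors 9 were lower and 2 higher (median −0.72). Htr3b, a subunit of the serotonin-gated channel, was at 5.97, 7.44, 7.70 and 7.23 in axotomy ganglia, against 9.45, 9.26, 8.89 and 8.66 in naive ganglia. No axotomy array reached a naive array, and the response was −1.98 (SE 0.24, adjusted p 6.97e-10). The acid-sensing channel gene Asic1 was at −0.79, while Gfra3, the receptor of artemin, rose by 1.66 (SE 0.15). Among the other genes with the lowest responses were the small GTPase gene Rem2 (−1.74), the orphan nuclear receptor gene Esrrb (−1.79), the synaptic gene Nptx1 (−1.71), the secreted synaptic organizer C1ql4 (−1.72), Lgi3, a secreted neuronal protein (−1.73), Vstm2b (−1.998) and 6430571L13Rik (−1.88). The plasma membrane calcium pump gene Atp2b3 was below background on all axotomy arrays, a fall of at least 2.08-fold.

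Markers of neuron types showed the same direction. Of 10 markers of large-diameter neurons 8 fell and none rose (median −0.80), against 14.3% lower and 12.8% higher of all genes. Among those that fell were the axonal adhesion gene Cntnap2 (−1.07), Whrn (−0.99) and the neurotrophin-3 receptor Ntrk3 (−0.60). Of 13 general sensory neuron markers 5 fell and 1 rose (median −0.30), with the homeobox gene Isl1 at −0.30. Their summed level was 115 to 131 in axotomy ganglia, against 142 to 151 in naive ganglia. Of 10 markers of satellite glia 2 rose and 2 fell, shares near those of all genes (median −0.04). Gfap, the glial filament gene, rose, and the water channel gene Aqp4 (−1.01) and the gap junction gene Gja1 (−0.45) fell. Myelinating Schwann cell markers were higher in 6 of 12 (median 0.36), among them Gldn, a gliomedin gene of the node (0.75), and Mag (0.49). Of 6 markers of oligodendrocytes and astrocytes of the central nervous system, 1 rose and 1 fell, shares near those of all genes (median 0.02). Aldh1l1 rose (0.71) and Aqp4 fell.

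Macrophage markers were higher in 21 of 22 members, against 12.8% of all genes (median 2.19), and their summed level was 47.0 to 62.4 in axotomy ganglia, against 11.9 to 16.4 in naive ganglia. The complement genes C1qc and C1qb rose by 3.34 and 3.31 and the mannose receptor gene Mrc1 by 2.48. Chemokines and their receptors were higher in 18 of 22 (median 1.94), among them Csf1, the growth factor of macrophages (2.76, SE 0.16). Interferon-stimulated genes were higher in 21 of 24 (median 1.37), genes of MHC and antigen presentation in 12 of 19 (median 0.99), and of 12 complement genes 7 rose and 1 fell (median 0.54), against 12.8% higher and 14.3% lower of all genes. No member of the macrophage, chemokine, interferon and MHC lists was called lower. H2-Eb1, of MHC class II, rose by 1.78 (SE 0.21). As macrophage markers rose in the same ganglia, their part in the rises of these lists was not tested.

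TLR4 is the receptor of bacterial lipopolysaccharide, and it is inactive in one well-known C3H substrain. Of 20 measured genes of its pathway 11 were higher, against 12.8% of all genes, and none lower (median 0.58). The coreceptor gene Cd14 rose by 2.26 (SE 0.17, adjusted p 3.73e-17) and the adaptor gene Myd88 by 0.85 (SE 0.12, adjusted p 1.68e-08). Tlr4 itself was at 5.64, 7.28, 6.68 and 6.17 in axotomy ganglia, against 6.31, 5.75, 5.56 and 6.08 in naive ganglia. The 2 groups overlapped, and the response of 0.52 (SE 0.23) did not pass (adjusted p 0.0911). It passed without axotomy replicate 1 (adjusted p 0.00794) or without naive replicate 1 (adjusted p 0.0483). An intensity says nothing of the activity of the protein.

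Neutrophil markers were called in 1 of 12, the decoy receptor gene Il1r2 (0.62), with a median of 0.71. The median was 0.20 without axotomy replicate 2, whose neutrophil sum is given above, and the call of Il1r2 did not hold without axotomy replicate 1 or 3, or without naive replicate 2 or 4 (highest adjusted p 0.156). T and NK cell markers were called in 1 of 7 (Ccl5, median 0.14) and B cell markers in 1 of 6, Fcmr, a receptor of immunoglobulin M (at least 4.81-fold, median of the list 0.33). The neutrophil, T and NK cell and B cell counts lie near the 12.8% of all genes that rose. The T cell receptor component gene Cd3g was below background on all 8 arrays. Fibroblast markers were higher in 4 of 14 (median 0.25) and collagens and matrix genes in 12 of 19 (median 0.48), with the protease inhibitor gene Timp1 at 3.17, the gelatinase gene Mmp2 at 1.17 and Lum at 1.04. Endothelium and pericyte markers were lower in 2 of 15, a share near the 14.3% of all genes (median 0.03), the VEGF receptor gene Flt1 (−0.58) and the pericyte gene Rgs5 (−0.52). Rgs5 was not called without axotomy replicate 1 or 4, or without naive replicate 1 or 4 (highest adjusted p 0.112). None of 14 skeletal muscle, 5 erythroid and 4 sex-linked genes was called, with medians of 0.36, −0.16 and −0.30. Adipocyte markers were higher in 2 of 6 (median 0.46), Car3 (2.13) and the lipid droplet gene Cidec (0.61). Cidec was not called without axotomy replicate 3 or 4, or without naive replicate 1, 2 or 4 (highest adjusted p 0.150).

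Lists of general cell functions had medians between −0.09 and 0.44. Cell cycle genes were higher in 10 of 21, against 12.8% of all genes (median 0.44), among them the inhibitor Cdkn1a (1.55) and the replication gene Mcm6 (1.01). Cholesterol synthesis genes were higher in 9 of 17, also against 12.8% (median 0.30), led by Hsd17b7 (2.27), Mvd (1.14) and Sqle (0.50). Of 22 oxidative phosphorylation genes 3 fell, a share near the 14.3% of all genes that fell (median −0.09), Uqcrc1 (−0.33), Ndufb8 (−0.21) and Ndufs3 (−0.26). Ndufs3 was not called without naive replicate 2 (adjusted p 0.0667). Cytosolic ribosome genes were higher in 4 of 14 (median 0.10), among them Rps24 (0.21), Rps2 (0.37) and Rps9 (0.30). Rps9 was not called without naive replicate 1 (adjusted p 0.129). Rps2 was not called without naive replicate 1 (adjusted p 0.0711). With median scaling in place of quantile normalization, Ndufb8, Ndufs3, Rps24, Rps2 and Rps9 were not called. Heat shock genes had 1 higher, the small heat shock protein gene Hspb1 (0.90), and 1 lower, Hsph1 (−0.56), of 17 (median −0.05).

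**Figure D2:**
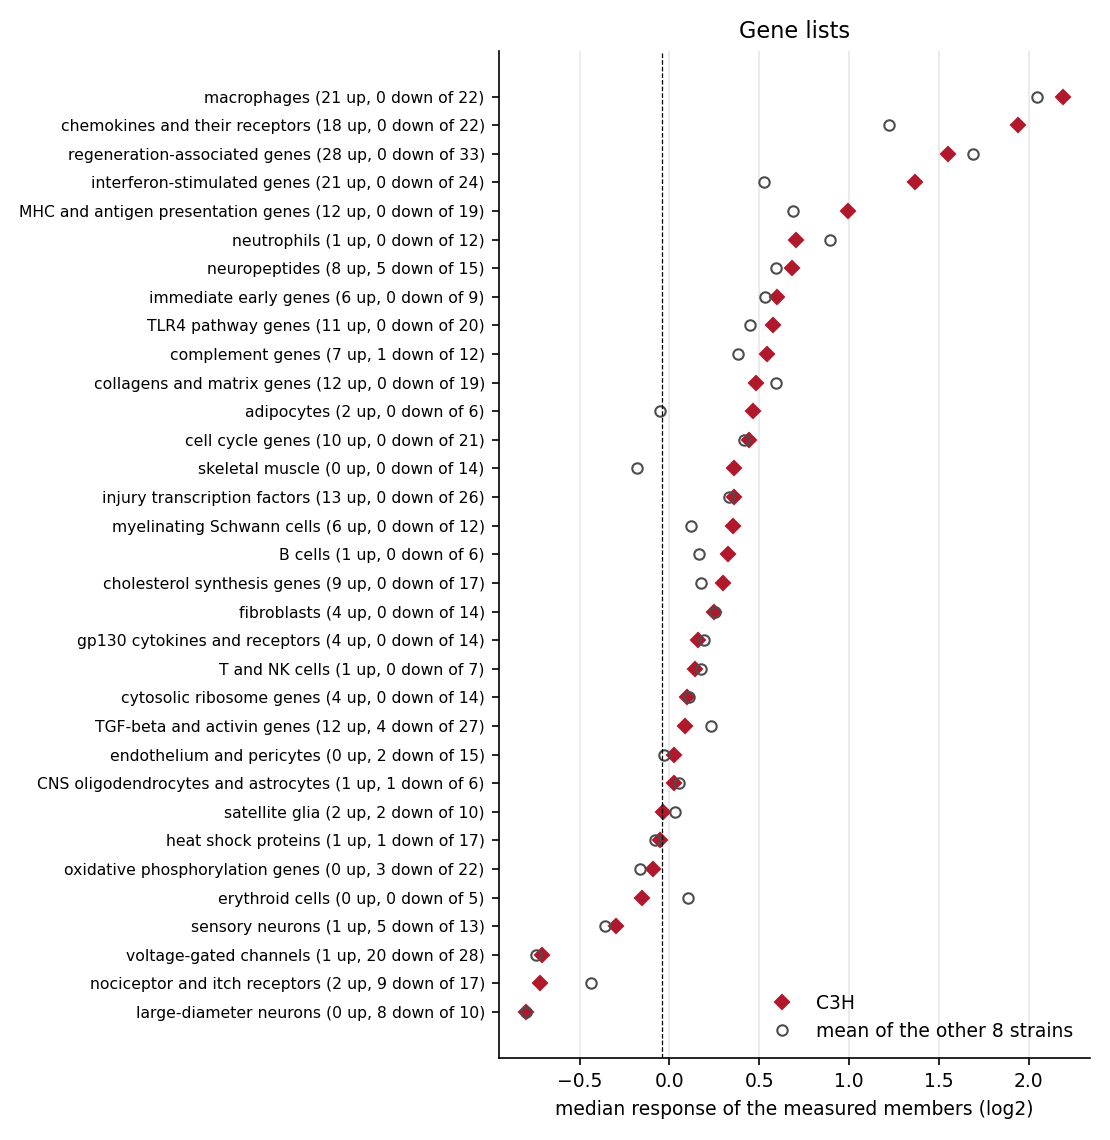
Median log2 response of the measured members of each gene list in C3H and as a mean over the other 8 strains, with the counts of members called in the labels. Macrophage markers, chemokines, regeneration-associated genes and interferon-stimulated genes have the highest C3H medians (2.19, 1.94, 1.55 and 1.37), and the interferon list has its C3H point far from that of the other strains.

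Across genes the C3H response followed that of the other strains closely. Over 11815 genes its Pearson correlation with their mean response was 0.90 (Spearman 0.80), with a slope of 0.99. Single strains ranged from 0.77 for CAST to 0.86 for DBA, with 129, NZO and NOD at 0.80, AJ at 0.82, C57 at 0.83 and WSB at 0.84. Genes are not independent and all responses come from 1 normalization, so these values are descriptions. Of the 3211 genes called in C3H, 3063 were also called with the same sign in the mean response of the other strains, 12 were called there with the opposite sign and 136 were not called there. That mean, which rests on 62 arrays against the 8 of C3H, was called for 60.1% of all genes.

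What set the C3H response apart was tested as the C3H response minus the mean response of the other 8 strains, here the difference. It was called for 131 genes (1.11%), 78 with a higher value in C3H (0.66%) and 53 with a lower one (0.449%), and 998 genes had an unadjusted p below 0.05. With median scaling in place of quantile normalization 83 genes were called, 59 higher and 24 lower. Without axotomy replicate 2, 90 genes were called, 51 higher and 39 lower, and 87 of these were among the 131. The median difference of all genes was −0.01. Of the 131, 102 were also called in the C3H response. C3H had the highest response of the 9 strains for 40 of the 131 and the lowest for 40, against 6.68% and 8.73% of all genes. The 131 were chosen by the difference, which favours such ranks, so these counts are not separate evidence either. The levels behind the difference could also be set against the other strains. Of the 78 higher genes, 61 had a higher level in C3H axotomy ganglia than in those of the other strains (9.4% of all genes did) and 23 a lower level in C3H naive ganglia (6.7%). Of the 53 lower genes, 35 had a lower axotomy level (8.54%) and 20 a higher naive level (8.51%). These levels enter the difference itself, so the shares are not separate evidence.

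**Figure D3:**
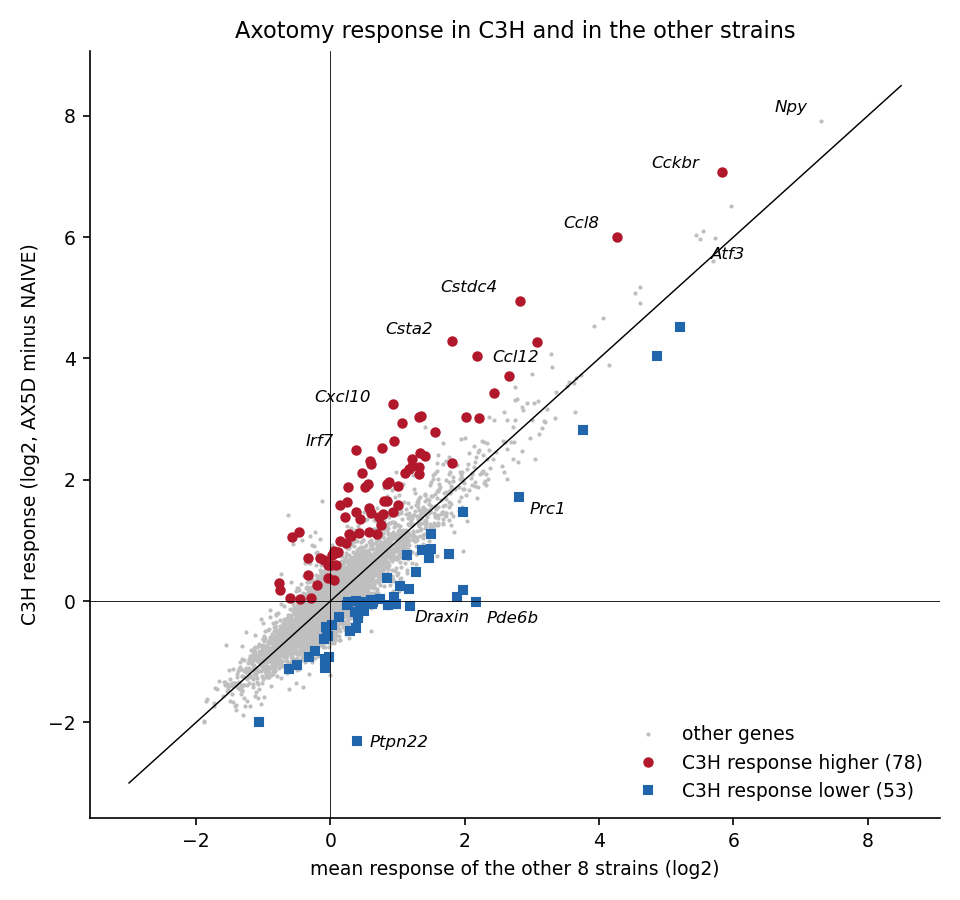
The log2 response of each of 11815 genes in C3H (vertical axis) against its mean response in the other 8 strains (horizontal axis), with the 78 genes of higher and the 53 of lower difference marked. Most genes lie along the diagonal (Pearson r 0.90), and the marked genes lie above or below it.

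Interferon-stimulated genes were the list with the most members called in the difference, 10 of 24 higher, against 0.66% of all genes, and none lower, with a median of 0.71. Irf7 on chromosome 7, the transcription factor that amplifies the interferon response, was at 7.497, 8.91, 8.47 and 7.30 in C3H axotomy ganglia, against 5.86, 5.26, 5.40 and 5.72 in naive ganglia, where it was below background throughout. All axotomy arrays lay above all naive arrays, replicates 2 and 3 highest. Irf7 rose at least 4.38-fold in C3H. Its log2 response was 2.49 in C3H, against 2.41 in CAST and −0.10 to 0.27 in the other 7 strains. The difference was 2.11 (SE 0.28, adjusted p 2.28e-07). Ifit3, which binds viral RNA together with its relatives, was at 12.43, 13.59, 13.63 and 12.25 in C3H axotomy ganglia, against 10.65, 10.68, 10.75 and 10.81 in naive ganglia. The naive arrays lay within a narrow band below every axotomy array. Its response was 2.26 in C3H, against 3.72 in CAST and −0.31 to 0.84 elsewhere (difference 1.65, SE 0.24, adjusted p 3.99e-06).

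Isg15, a ubiquitin-like modifier, was at 9.56, 11.07, 10.90 and 9.50 in C3H axotomy ganglia, against 6.94, 7.84, 7.82 and 7.86 in naive ganglia. Its axotomy values split into a higher pair, replicates 2 and 3, and a lower pair, and both lay above all naive values. The difference was 1.69 (SE 0.30, adjusted p 0.000204). Usp18, which removes Isg15 from proteins and dampens interferon signalling, was at 10.78, 12.15, 12.02 and 10.77 in C3H axotomy ganglia, against 8.59, 8.42, 8.12 and 8.40 in naive ganglia. The same pair of arrays was highest, and the difference was 1.71 (SE 0.31, adjusted p 0.000206). Rsad2, the gene of the antiviral enzyme viperin, was at 11.34, 13.16, 12.66 and 10.92 in C3H axotomy ganglia, against 10.14, 10.002, 10.34 and 10.10 in naive ganglia. Its groups did not overlap, and its difference of 1.36 (SE 0.32, adjusted p 0.01005) did not hold without axotomy replicate 2 or 3 (highest adjusted p 0.161). CAST responded more than C3H in all 3 of these genes: the response was 2.64 in C3H, against 3.27 in CAST, for Isg15, 3.05, against 5.31, for Usp18 and 1.88, against 3.01, for Rsad2.

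The other members called were Oas2, a sensor of double-stranded RNA (difference 1.13, adjusted p 0.00193), the GTPase gene Mx2 (1.01, adjusted p 0.0399), Ddx58, which encodes the RNA sensor RIG-I (0.77, adjusted p 0.0454), Ifi35 (0.74, adjusted p 0.0324) and Parp14 (0.67, adjusted p 0.0238). All of these except Oas2 lay close to the threshold. Mx2 was not called without axotomy replicate 2 or 3, naive replicate 1, 2, 3 or 4, or without strain AJ, C57, NOD or NZO (highest adjusted p 0.326). Ifi35 was not called without axotomy replicate 2, 3 or 4, naive replicate 1 or 2, or without strain NOD (highest adjusted p 0.136), and Parp14 not without axotomy replicate 2 or 3, naive replicate 2 or 3, or without strain 129, C57 or NOD (highest adjusted p 0.178). Ddx58 was not called without axotomy replicate 1, 2 or 3, naive replicate 1, 2, 3 or 4, or without strain 129, AJ, C57, NOD, NZO or WSB (highest adjusted p 0.339). The list had 5 members called without axotomy replicate 2, 5 without replicate 3, 6 with median scaling and 15 without strain CAST. Its median difference was 0.59 without replicate 2 and 0.53 without replicate 3.

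The summed level of the 24 interferon-stimulated genes was 58.1, 74.8, 74.6 and 51.8 on the 4 C3H axotomy arrays, against 29.2, 28.2, 29.0 and 29.3 on the naive arrays. Every axotomy array thus lay well above the naive arrays, which hardly varied. The neutrophil sums of the axotomy arrays, 34.1 on replicate 2 and 5.40 to 9.52 on the other 3, are given above. The macrophage sum of 47.0 to 62.4 on the C3H axotomy arrays lay within the 35.8 to 77.0 of the axotomy arrays of other strains. The part of these cell types in the interferon difference was not tested. By strain, the median response of the list was 1.37 in C3H, against 2.27 in CAST, 0.50 in DBA, 0.42 in WSB, 0.37 in AJ, 0.31 in NZO, 0.24 in NOD, 0.22 in 129 and 0.05 in C57. For 4 of the 24 members C3H had the highest response of the 9 strains, and for none the lowest. The other kept probes of Usp18 and Ifit3 also passed, with differences of 2.08 and 2.49 for Usp18 and 1.87 and 1.85 for Ifit3.

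**Figure D4:**
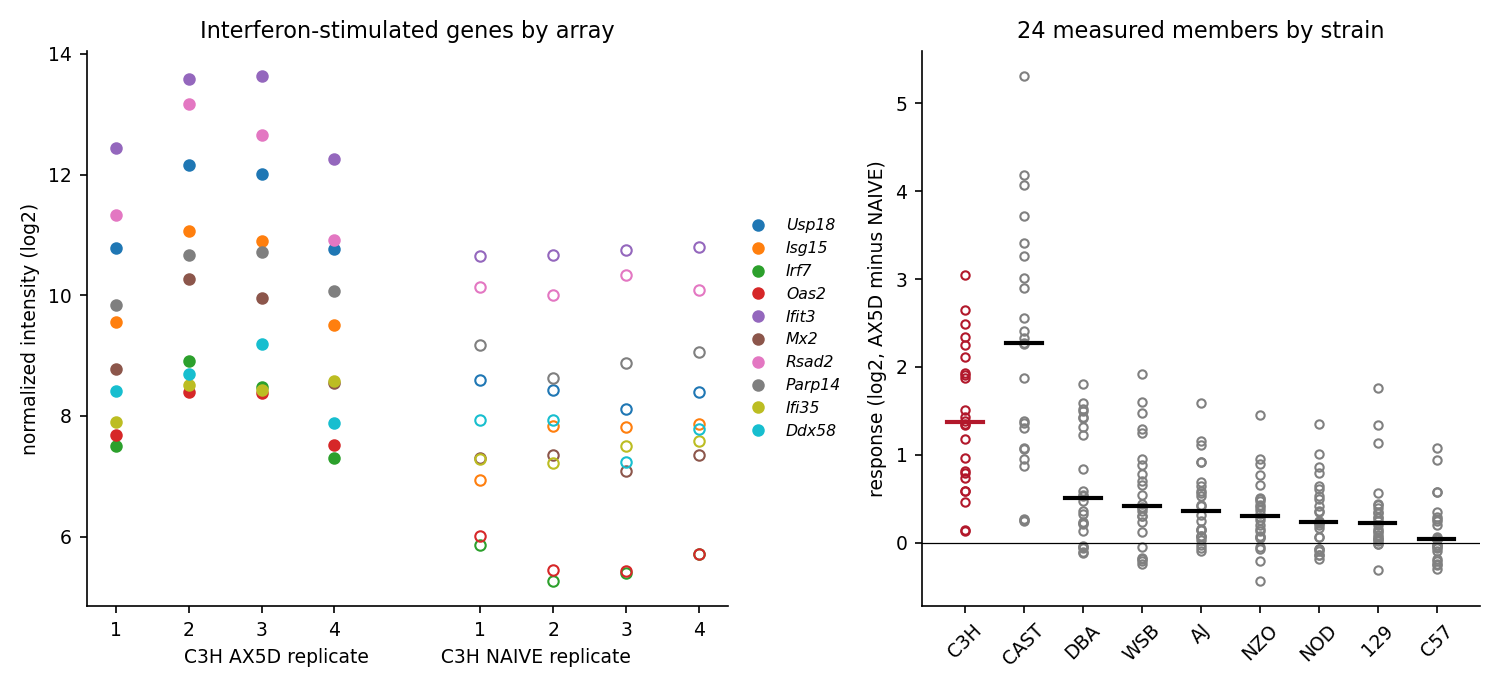
Left, normalized log2 intensities of the 10 interferon-stimulated genes called in the difference, on the 4 axotomy and the 4 naive C3H arrays. Right, the log2 response of each of the 24 measured members by strain, with the median as a bar: C3H has a median of 1.37, CAST 2.27 and the other 7 strains between 0.05 and 0.50.

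The promoters of these genes were searched for the letters of the interferon response element, a pair of TTTC, or of GAAA for the other strand, with any 2 bases between them. These letters were chosen after the values of the genes were seen. They stood in 11 of 17 promoter windows of the interferon list (64.7%), in 4 of 6 of the members called in the difference, in 11 of 55 of all genes with a higher difference (20.0%) and in 2 of 41 with a lower one (4.88%), against 3.99% of 27025 windows of all genes. Of the 9515 windows of the genes tested, 3.7% held them. The bases before the start are shown for 4 genes whose C3H response exceeded that of most strains, from RefSeq on GRCm38.p6, 5′ to 3′ on the strand of the gene, with the element's letters in capitals. Ifit3 lies at chr19:34583353-34583528 on the plus strand and holds the letters at 2 places, starting 156 and 122 bases before the start. Isg15 lies at chr4:156200819-156200916 on the minus strand, with 3 overlapping matches that begin between 78 and 66 bases before the start. Rsad2 lies at chr12:26456453-26456592 and Cxcl10 at chr5:92348890-92349122, both on the minus strand with 1 match, 120 and 213 bases before the start.
Ifit3: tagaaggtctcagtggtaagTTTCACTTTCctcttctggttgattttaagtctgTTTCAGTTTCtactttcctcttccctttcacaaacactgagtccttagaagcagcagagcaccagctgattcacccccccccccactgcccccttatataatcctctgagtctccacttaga
Isg15: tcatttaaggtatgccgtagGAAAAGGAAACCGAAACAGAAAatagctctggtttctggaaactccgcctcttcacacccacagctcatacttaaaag
Rsad2: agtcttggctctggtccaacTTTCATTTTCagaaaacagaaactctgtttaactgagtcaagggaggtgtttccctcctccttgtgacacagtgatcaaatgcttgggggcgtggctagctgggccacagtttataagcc
Cxcl10: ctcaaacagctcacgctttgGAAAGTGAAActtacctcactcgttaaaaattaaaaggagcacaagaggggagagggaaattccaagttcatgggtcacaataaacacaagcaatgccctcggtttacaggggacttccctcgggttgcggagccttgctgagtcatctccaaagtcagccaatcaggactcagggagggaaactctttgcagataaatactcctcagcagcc

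Genes that interferon is known to raise also stood outside the list. Cxcl10, a chemokine of the interferon response that attracts T cells, was at 9.23, 11.08, 11.38 and 9.21 in C3H axotomy ganglia, against 6.71, 7.15, 6.68 and 7.38 in naive ganglia. The groups did not overlap, and replicates 2 and 3 were again highest. The response was 3.25, against 3.17 in CAST and −0.14 to 2.53 in the rest, with a difference of 2.31 (SE 0.43, adjusted p 0.000442). Dhx58, an RNA helicase related to RIG-I, was at 6.999, 8.52, 8.45 and 7.53 in C3H axotomy ganglia, against 6.23, 5.54, 5.71 and 6.49 in naive ganglia. No array of one group lay within the other (difference 1.62, SE 0.29, adjusted p 0.000206). Epsti1 was at 6.60, 6.95, 7.10 and 6.77 in C3H axotomy ganglia, against 5.13, 5.37, 5.34 and 5.06 in naive ganglia. It was above background only after axotomy, a rise of at least 1.92-fold. The log2 response of 1.63 in C3H exceeded those of all other strains, which lay between −0.26 and 0.88 (difference 1.38, adjusted p 1.66e-07). Gbp2b, a guanylate-binding protein gene, was at 10.89, 11.68, 11.86 and 10.34 in C3H axotomy ganglia, against 8.64, 8.74, 9.17 and 9.01 in naive ganglia. It was higher in C3H than in the other strains in both states, by 4.54 after axotomy and 2.83 in naive ganglia, and its difference was 1.71 (SE 0.33, adjusted p 0.000648).

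Chemokine genes were called higher in 6 of 22 members, against 0.66% of all genes, and lower in none (median difference 0.19). Ccl8, a ligand for monocytes and T cells, was at 11.89, 11.93, 11.33 and 11.65 in C3H axotomy ganglia, against 5.08, 5.29, 5.62 and 6.79 in naive ganglia, where 1 array was above background. The groups were far apart, and the response of 6.01 was the highest of the 9 strains, against 2.63 to 5.49 in the other 8. The difference was 1.73 (SE 0.24, adjusted p 4.76e-07). Ccl12, a monocyte attractant of mice, was at 10.68, 11.02, 10.96 and 10.83 in C3H axotomy ganglia, against 6.83, 7.28, 6.85 and 6.37 in naive ganglia. All axotomy arrays exceeded all naive arrays (difference 1.85, SE 0.25, adjusted p 3.66e-07). The response of Ccl12 was 4.04 in C3H, against 0.48 in CAST, 0.13 in WSB and 2.41 to 3.30 in the rest. Its mean over the other strains thus includes 2 low ones. The other kept probe of Ccl12 gave a C3H response of 3.80 and a smaller difference of 0.95, which also passed. Ccl5, a chemokine that attracts T cells and monocytes, was at 8.51, 8.33, 8.82 and 8.14 in C3H axotomy ganglia, against 4.98, 5.46, 5.93 and 5.32 in naive ganglia. It was above background only after axotomy, at least 5.81-fold higher, with a difference of 1.72 (SE 0.26, adjusted p 9.55e-06). The response of Ccl5 was 3.03 in C3H, against 3.999 in CAST, 2.20 in DBA and 0.16 to 1.82 in the rest. Ccl4, another chemokine of macrophages and T cells, rose by 2.22 in C3H, against 2.27 in CAST and 0.21 to 1.98 in the rest, and had a difference of 1.01 (adjusted p 0.00196). Ccl8 and Ccl12 are neighbours on chromosome 11 with no gene between them, and Ccl5 and Ccl4 have 3 genes between them on the same chromosome, in the RefSeq order.

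Ccl21a, a lymphocyte attractant, rose in C3H and fell in the mean of the other strains. It was at 8.14, 8.22, 8.04 and 8.58 in C3H axotomy ganglia, against 7.05, 5.63, 7.96 and 7.78 in naive ganglia. The lowest axotomy array was just above the highest naive array, and the naive arrays spread widely. The response was 1.14 in C3H (adjusted p 0.0142), against −0.46 in the mean of the other strains. Its near-identical relative Ccl21c was at 6.38, 6.78, 5.89 and 7.81 in C3H axotomy ganglia, against 5.08, 5.14, 6.59 and 5.84 in naive ganglia, and its groups overlapped (response 1.05 in C3H, against −0.57 in the others). Probes of these copies may share signal, so they are not separate observations. The difference of Ccl21a, 1.60 (adjusted p 0.0186), was not called without axotomy replicate 4, naive replicate 1 or 2, or without strain NOD (highest adjusted p 0.233), and that of Ccl21c, 1.62 (adjusted p 0.00561), not without axotomy replicate 4, or without naive replicate 1 (highest adjusted p 0.0843). Their C3H responses were not called without axotomy replicate 4, or without naive replicate 2 (highest adjusted p 0.213) for Ccl21a, and without axotomy replicate 4, or without naive replicate 1 or 2 (highest adjusted p 0.152) for Ccl21c.

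In the list of MHC and antigen presentation, B2m, the light chain of class I molecules, and the class I gene H2-T23 were called higher in the difference, 2 of 19 members, against 0.66% of all genes, with a list median of 0.28. B2m was at 14.05, 14.20, 14.06 and 14.06 in C3H axotomy ganglia, against 12.77, 12.87, 13.04 and 13.27 in naive ganglia. Replicate 2 was highest, and all axotomy arrays lay above the naive arrays (difference 0.42, SE 0.10, adjusted p 0.00939). CAST was above C3H in both, with C3H responses of 1.10 for B2m and 1.64 for H2-T23, against 1.69 and 2.54 in CAST. H2-T23 had a difference of 0.84 (SE 0.22, adjusted p 0.0290). The other kept probe gave a difference of 0.22 for B2m and 0.64 for H2-T23, and neither passed. Both results thus belong to 1 probe. B2m was not called without axotomy replicate 2, naive replicate 1 or 2, or without strain C57 (highest adjusted p 0.104), and H2-T23 not without axotomy replicate 2 or 3, naive replicate 1 or 2, or without strain 129, C57 or NZO (highest adjusted p 0.223). Without axotomy replicate 2 no member of the list was called.

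Other genes with a higher response in C3H belong to unrelated families. The stefin genes Csta2 and Cstdc4, inhibitors of cathepsins, were among them. Csta2 was at 10.13, 8.48, 9.09 and 9.51 in C3H axotomy ganglia, against 5.01, 5.11, 4.84 and 5.06 in naive ganglia, where it was below background. It rose at least 10.5-fold, with a log2 response of 4.30. The other strains fell into a set with responses near 0, the lowest at −0.33, and a set near 4, the highest at 4.08 (difference 2.49, SE 0.30, adjusted p 1.80e-08). Cstdc4, a close relative on chromosome 16 with 1 gene between them, was at 10.12, 10.59, 10.23 and 10.33 in C3H axotomy ganglia, against 5.18, 5.40, 5.22 and 5.66 in naive ganglia. All axotomy arrays were far above the naive arrays, which were below background. The strains split as for Csta2: the response was 4.95 in C3H, against 5.45 in DBA, 4.71 in C57, 4.28 in WSB, 4.25 in CAST and 0.58 to 1.46 in 129, AJ, NOD and NZO (difference 2.13, SE 0.20, adjusted p 8.45e-12). As their sequences are similar, the signals of these genes may not be separate.

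Folr2, a folate receptor of resident macrophages, was at 6.93, 7.89, 7.74 and 7.45 in C3H axotomy ganglia, against 4.86, 4.84, 5.23 and 4.95 in naive ganglia. It was below background in all naive ganglia and rose at least 3.01-fold, with a difference of 1.76 (SE 0.23, adjusted p 1.18e-07). Nrap, which encodes a protein of striated muscle junctions, was at 8.85, 9.38, 9.02 and 9.03 in C3H axotomy ganglia, against 6.22, 6.18, 5.62 and 6.53 in naive ganglia. The summed muscle markers of the arrays are given above, and their part in the levels of Nrap was not tested. The groups did not overlap, and the response was 2.93 in C3H, against 2.66 in DBA and 0.39 to 1.63 in the other 7 (difference 1.87, SE 0.25, adjusted p 2.28e-07). Cckbr was at a higher axotomy level in C3H than in the other strains, by 0.95, and its difference was 1.24 (SE 0.15, adjusted p 6.28e-08), though 2 strains responded more strongly, up to 7.31.

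Glial and macrophage genes were among the calls as well. Gfap was at 7.19, 7.81, 6.87 and 7.42 in C3H axotomy ganglia, against 5.04, 5.31, 5.38 and 5.87 in naive ganglia, where 1 array was above background. The groups did not overlap, and the difference was 1.36 (SE 0.26, adjusted p 0.000587). Its response was 1.92 in C3H, against 2.22 in DBA, 1.12 in CAST, 0.88 in AJ and −0.05 to 0.17 in the other 5. Pmp2, a fatty acid-binding protein of myelin, was at 12.46, 13.14, 12.02 and 12.51 in C3H axotomy ganglia, against 10.56, 11.35, 10.92 and 11.43 in naive ganglia. Its response of 1.47 exceeded that of every other strain, the highest of which was 0.85 (difference 1.08, adjusted p 0.00275). Pmp2 was not called without axotomy replicate 2 (adjusted p 0.0502). Of 22 macrophage markers 3 were called, against 1.11% of all genes. Ly86 (difference 0.84, adjusted p 8.95e-07) and Gpnmb (0.70, adjusted p 0.0334) were higher. Ly86 rose by 0.99 in C3H, against 2.67 in WSB and −0.78 to 0.82 in the rest, and Gpnmb by 1.13, against 1.31 in NZO. Fcer1g was lower (−0.65, adjusted p 0.0295) but below background on all 8 C3H arrays, and it was not called without strain CAST or without strain C57 (adjusted p 0.578 and 0.429), the only strains with a response above 0.11. Gpnmb was not called without axotomy replicate 1, 2 or 4, naive replicate 1, 2 or 4, or without strain AJ, C57 or NOD (highest adjusted p 0.172). In the cholesterol list, Hsd17b7 (0.46, adjusted p 0.000810) and Mvd (0.56, adjusted p 0.0161) were higher, 2 of 17 members, against 0.66% of all genes. Their C3H responses of 2.27 and 1.14 stood against 2.39 and 1.23 in WSB, which was higher in both. Mvd was not called without axotomy replicate 4, naive replicate 1 or 2, or without strain CAST (highest adjusted p 0.0980). The regeneration list held 1 higher gene, Reg3b, a secreted lectin (1.05, adjusted p 0.0137), which was not called without axotomy replicate 2, or without strain CAST (highest adjusted p 0.157). Reg3b rose by 3.71 in C3H, against 4.35 in DBA.

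Of the genes with a lower response in C3H, Ptpn22, a tyrosine phosphatase of lymphocytes on chromosome 3, had the largest difference. It was at 5.75, 6.38, 6.59 and 6.22 in C3H axotomy ganglia, against 9.37, 9.34, 7.95 and 7.49 in naive ganglia. The naive arrays split into a higher and a lower pair, both above all axotomy arrays, and the response of −2.30 (SE 0.26, adjusted p 7.52e-11) stood against 0.08 to 0.78 in the other strains. The difference was −2.70 (SE 0.28, adjusted p 2.45e-10). The C3H naive level exceeded that of the other strains by 2.81 (adjusted p 1.78e-18), while the axotomy level differed by 0.11 (adjusted p 0.797).

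Pde6b on chromosome 5, a subunit of the phosphodiesterase of rod photoreceptors, had the smallest p of all genes in the difference, and many C3H substrains are known to carry a mutated copy of it. It was at 5.07, 5.16, 4.86 and 4.84 in C3H axotomy ganglia, against 5.08, 5.06, 4.995 and 4.88 in naive ganglia. None of these 8 arrays was above background and the groups overlapped. In the other strains 31 of 31 axotomy arrays showed it above background, against 4 of 31 naive arrays, with responses of 1.45 to 2.80. The difference was −2.19 (SE 0.20, adjusted p 2.78e-12). Draxin, a guidance molecule that repels axons, was at 5.45, 5.26, 5.40 and 5.10 in C3H axotomy ganglia, against 5.08, 5.36, 5.17 and 5.31 in naive ganglia, and no C3H array was above background, against 29 of 31 axotomy and 8 of 31 naive arrays of the other strains. Its difference was −1.81 (SE 0.21, adjusted p 1.80e-08), but the other 2 kept Draxin probes gave −0.19 and 0.26 and did not pass, so the result belongs to 1 probe. The homeobox gene Lmx1a was likewise below background on all C3H arrays, at 5.12, 4.98, 5.07 and 5.08 in axotomy ganglia, against 5.03, 5.50, 5.21 and 4.84 in naive ganglia (difference −1.27, adjusted p 2.28e-07). Its response in the other strains ranged widely, from 0.05 to 3.48.

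Prc1, a protein of the dividing cell's spindle midzone, rose in every strain and least in C3H. It was at 9.50, 9.80, 9.67 and 9.56 in C3H axotomy ganglia, against 7.70, 7.72, 8.32 and 7.94 in naive ganglia. The groups were well separated, with a response of 1.71, against 1.95 to 3.65 elsewhere (difference −1.10, SE 0.14, adjusted p 8.97e-08). No other of the 21 measured cell cycle genes was called in the difference. Jun was at 11.34, 11.60, 11.53 and 11.51 in C3H axotomy ganglia, against 10.53, 10.34, 10.45 and 10.21 in naive ganglia. It rose clearly, yet less than in the mean of the others, 1.11 against 1.49 (difference −0.38, SE 0.09, adjusted p 0.0122). In AJ it rose less than in C3H, by 0.75. The call of Jun was lost without axotomy replicate 1, naive replicate 1, or without strain NZO or WSB (highest adjusted p 0.0920) and with median scaling (adjusted p 0.251). The differences of Atf3 (0.47), Sprr1a (0.26), Gal (0.57), Npy (0.62), Gap43 (0.04), Inhba (−0.23), Fst (−0.24) and Tlr4 (0.24) did not pass, which does not show that these genes respond alike.

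Il31ra, a receptor for the itch cytokine interleukin 31, was at 10.39, 9.995, 10.66 and 10.12 in C3H axotomy ganglia, against 10.41, 10.21, 10.20 and 10.58 in naive ganglia. The groups overlapped and the C3H response did not pass, while the other strains lay between 0.10 and 2.01 (difference −0.92, SE 0.15, adjusted p 1.93e-05). Slc7a11, the cystine transporter, was at 6.31, 7.44, 6.69 and 5.76 in C3H axotomy ganglia, against 6.13, 6.67, 6.53 and 6.06 in naive ganglia. These groups overlapped too (difference −0.97, adjusted p 0.0225), and the call did not hold without axotomy replicate 1 or 4, naive replicate 2 or 3, or without strain WSB (highest adjusted p 0.234). Vapb, a tether of the endoplasmic reticulum that is mutated in a form of motor neuron disease, was at 11.63, 10.41, 11.44 and 10.91 in C3H axotomy ganglia, against 11.97, 11.95, 11.98 and 12.19 in naive ganglia. The axotomy arrays lay below the naive arrays but spread more widely (difference −0.90, adjusted p 0.00917). Vapb was not called without axotomy replicate 2 (adjusted p 0.133). Hs3st6, a heparan sulfate sulfotransferase gene, was at 5.33, 5.54, 5.61 and 4.99 in C3H axotomy ganglia, all below background, against 7.37, 7.65, 7.49 and 6.97 in naive ganglia. It fell at least 2.83-fold (difference −0.93, adjusted p 0.0137). Hs3st6 was not called without axotomy replicate 4, naive replicate 2, or without strain CAST (highest adjusted p 0.0907).

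The kallikrein genes Klk1b27 and Klk1b22, neighbouring serine proteases of a large family on chromosome 7, were higher in C3H naive ganglia than in those of the other strains. Klk1b27 was at 6.61, 6.81, 6.90 and 6.41 in C3H axotomy ganglia, against 7.71, 7.87, 7.83 and 7.76 in naive ganglia, and Klk1b22 was at 10.22, 10.26, 10.32 and 10.03 in C3H axotomy ganglia, against 11.27, 11.24, 10.96 and 11.18 in naive ganglia. In both the axotomy arrays lay below the naive arrays. The naive levels exceeded those of the other strains by 2.45 (adjusted p 4.11e-21) and 5.36 (adjusted p 5.49e-37), and the differences were −1.03 (adjusted p 0.00238) and −0.87 (adjusted p 0.0406). The copies of this family are nearly identical, so which of them a probe measured is uncertain. Klk1b22 was not called without axotomy replicate 1, 2, 3 or 4, naive replicate 1, 2 or 4, or without strain AJ, C57, CAST, NOD or NZO (highest adjusted p 0.132). Tmc5, of the transmembrane channel-like family, was above background on 1 C3H axotomy array and no naive array (difference −1.02, adjusted p 0.00592). Tmc5 was not called without axotomy replicate 4 (adjusted p 0.0558). Its response of −0.04 in C3H stood against −0.01 to 0.35 in 129, CAST, DBA and WSB and 1.52 to 2.07 in the other 4 strains. Flt1 (difference −0.55, adjusted p 0.00985) and Aldh1l1 (−0.76, adjusted p 0.0132) were lower in C3H as well. The other kept probes of Aldh1l1 gave differences of −0.51, −0.16 and 0.08 and did not pass, so its result belongs to 1 probe. Flt1 was not called without axotomy replicate 4, or without naive replicate 1 or 2 (highest adjusted p 0.0847), and Aldh1l1 not without naive replicate 1 or 2 (highest adjusted p 0.0910).

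**Figure D5:**
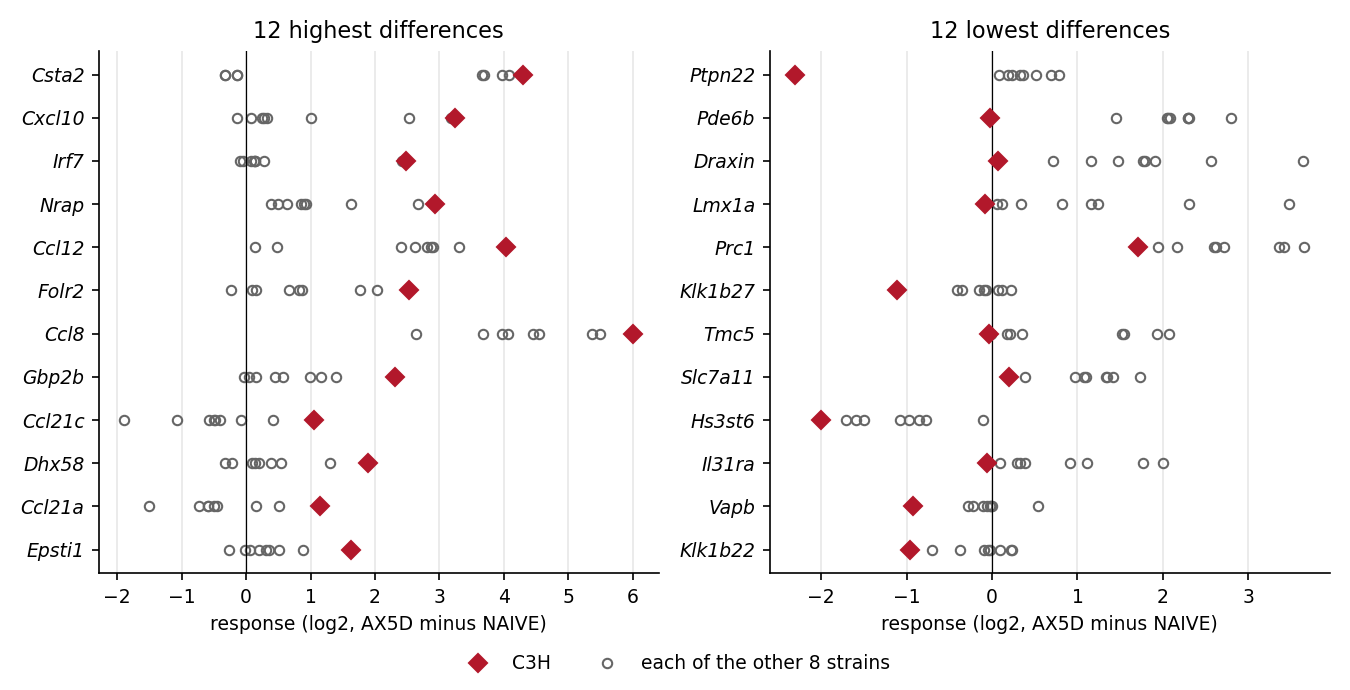
The log2 response in C3H (diamonds) and in each of the other 8 strains (circles) for 12 genes with high and 12 with low differences chosen by rule, which required C3H to be the highest or lowest of the 9 strains. Ptpn22 lies at −2.30 in C3H and between 0.08 and 0.78 in the others, and Pde6b at −0.02 and between 1.45 and 2.80.

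A set of 12 genes was called in opposite directions in C3H and in the mean of the other strains. Of those also called in the difference, the 8 with the largest differences are named here, the most that the naming rule allowed. Beside Ptpn22, Ccl21a and Ccl21c they were Ccdc184 (0.30 in C3H, against −0.76 in the others), the sodium-proton exchanger gene Slc9a4 (0.71, against −0.33), Gipc2 (0.70, against −0.15), the galectin-binding protein gene Lgals3bp (0.43, against −0.33) and the transglutaminase gene Tgm1 (−0.50, against 0.30). Single strains departed from that mean: Lgals3bp rose by 0.43 in C3H, against 1.21 in CAST, Slc9a4 by 0.71, against 0.42 in CAST, and Gipc2 by 0.70, against 0.53 in DBA. Ccdc184 was at 9.54, 9.67, 9.70 and 9.72 in C3H axotomy ganglia, against 9.34, 9.34, 9.39 and 9.38 in naive ganglia. The groups lay close without overlapping, and the C3H response (adjusted p 0.0466) was not called without axotomy replicate 2, 3 or 4, or without naive replicate 1, 2, 3 or 4 (highest adjusted p 0.106), or with median scaling (adjusted p 0.243). The difference of Ccdc184 was 1.06 (SE 0.12, adjusted p 1.04e-08). Tgm1 was below background on all 8 C3H arrays. The C3H response of Slc9a4 was not called without axotomy replicate 2, or without naive replicate 4 (highest adjusted p 0.125), that of Lgals3bp not without axotomy replicate 2 (adjusted p 0.0579) and that of Tgm1 not without axotomy replicate 4, or without naive replicate 1 or 3 (highest adjusted p 0.125). The difference of Slc9a4 was not called without axotomy replicate 2, or without naive replicate 2 or 4 (highest adjusted p 0.117), and that of Tgm1 not without axotomy replicate 4, or without naive replicate 1 or 3 (highest adjusted p 0.0976).

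The genes whose responses across the 9 strains were most like that of Pde6b were Tcf4 (Pearson r 0.91), Hmx1 (0.88), Kat6b (0.88), Ptpn22 (0.87), Ago3 (0.87) and Gak (0.86), over 9 strain means. In each of them C3H had the lowest response, for instance −0.64 for Ago3, against −0.27 to 0.51 in the other strains, and −0.12 for Gak, against 0.03 to 0.27. The correlations thus share C3H as their lowest point and are given as descriptions. Of the 6, Ptpn22 alone was called in the difference.

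Of the 34 gene lists, 15 held at least 1 member called in the difference and 19 held none, among them neuropeptides, voltage-gated channels, complement genes, collagens and matrix genes, oxidative phosphorylation genes and the markers of sensory and large-diameter neurons, fibroblasts, neutrophils and B cells. Only 1.11% of all genes were called, so a short list without a call does not show that its genes respond alike in all strains. Among the 131 genes, 35 had several kept probes. Of the 49 other probes of these genes, 44 had a difference of the same sign, 16 of them past the threshold, and none passed with the opposite sign. Several of the 131 lie next to or near each other in the RefSeq order with the same sign of difference. Beside the pairs named above, Rsad2 and Cmpk2, F13a1 and Ly86, Tmc7 and Tmc5, and Casp1 and Casp4 have no gene between them. Phf11a and Phf11d have 1 gene between them. Zfp704 and Pmp2, and Lingo2 and Ddx58, have 2 genes between them and opposite signs.

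As CAST had the other high interferon median, the C3H response was also set against that of CAST alone, a comparison added after these values were seen. It was called for 488 genes (4.13%). Interferon-stimulated genes were lower in C3H than in CAST in 7 of 24 and higher in none (median −0.47), and genes of MHC and antigen presentation were lower in 6 of 19 (median −0.59). Usp18 had a response of 3.05 in C3H, against 5.31 in CAST (adjusted p 7.48e-05), and Ifit3 2.26, against 3.72 (adjusted p 0.00191). For Irf7 the values were 2.49 in C3H, against 2.41 in CAST, and did not differ past the threshold (adjusted p 0.962). Chemokines and their receptors were higher in C3H in 4 of 22 and lower in 1 (median −0.07), and cholesterol synthesis genes were higher in 6 of 17 (median 0.30).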

How the data were processed

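The deposited table held an intensity for each of 25697 Illumina probes on each array, on a linear scale and not normalized per the file headers, with a detection p-value per probe and array. The sources used here do not give the software that summarised the probes. The deposited log2 matrix matched log2 quantile-normalized intensities without background correction to within 0.027. A further 2 array columns, AJ arrays that the study set aside as outliers, were not used.

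With limma 3.58.1 in R 4.3.3, the background was estimated through the detection p-values and removed, an offset of 16 was added, and intensities were quantile normalized and put on a log2 scale. The offset makes fold changes of dim genes smaller than they are. Probes with detection p below 0.05 on at least 3 arrays were kept, 17616 in all, of which 16568 had 1 gene symbol in the platform annotation. The brightest probe by its mean over all arrays stood for its gene, which chose 1 of several probes for 3261 genes. A mean was fitted for each strain and state over all 70 arrays with limma's moderated test and a trend in the prior, and p-values were adjusted by the Benjamini-Hochberg method over 11815 genes. Where all arrays of a group were below background (detection p of 0.05 or more), a fold is given as a bound against the lowest detected signal. The number of arrays, 4 a group, limits the precision. Summed levels are sums of linear normalized intensities over the measured members of a list.

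The genes named are 9 known injury genes, the 12 highest and 12 lowest C3H responses with separate groups, the 12 highest and 12 lowest differences with C3H at the end of the 9 strains, up to 8 genes called in opposite directions, from each list the 3 members with the smallest p (fewer where it has fewer) and all members called in the difference, and the 6 genes most like the gene with the smallest p in the difference. Genes named outside this rule (Slc4a1, Cd3g, Cmpk2 and other neighbours) were chosen after their values were seen. The members, the lists and the tests were chosen with earlier results of these data known. Replicate numbers did not pair the samples: the correlation of deviations of C3H arrays with the same number was −0.07 to 0.15, over 0.1 for 2 of 4 pairs. Alternatives covered normalization, background, filters, probes, array weights, blocks, a fold threshold, leaving out each C3H array or other strain, and the deposited matrix. The fit was tested on simulated data first. The interferon element letters, the comparison with CAST, the list counts without single arrays and the sex-linked list were added after seeing the data.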

Additional observations from a re-analysis of the deposited data

Results flagged for a closer look

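The C3H response differed from the mean response of the other 8 strains, by limma's test of that difference, for 55 of the genes named, with the values here as C3H minus the others on the log2 scale. Among the interferon-stimulated genes and their relatives these were Cxcl10 (2.31), Irf7 (2.11), Gbp2b (1.71), Usp18 (1.71), Isg15 (1.69), Ifit3 (1.65), Dhx58 (1.62), Epsti1 (1.38), Rsad2 (1.36), Oas2 (1.13), Mx2 (1.01), Ddx58 (0.77), Ifi35 (0.74) and Parp14 (0.67). Among chemokines they were Ccl12 (1.85), Ccl8 (1.73), Ccl5 (1.72), Ccl21c (1.62), Ccl21a (1.60) and Ccl4 (1.01), and among genes of MHC class I and of macrophages Folr2 (1.76), H2-T23 (0.84), Ly86 (0.84), Gpnmb (0.70) and B2m (0.42). The other higher genes were Csta2 (2.49), Cstdc4 (2.13), Nrap (1.87), Gfap (1.36), Cckbr (1.24), Pmp2 (1.08), Ccdc184 (1.06), Reg3b (1.05), Slc9a4 (1.04), Gipc2 (0.86), Lgals3bp (0.76), Mvd (0.56) and Hsd17b7 (0.46). Lower in C3H were Ptpn22 (−2.70), Pde6b (−2.19), Draxin (−1.81), Lmx1a (−1.27), Prc1 (−1.10), Klk1b27 (−1.03), Tmc5 (−1.02), Slc7a11 (−0.97), Hs3st6 (−0.93), Il31ra (−0.92), Vapb (−0.90), Klk1b22 (−0.87), Tgm1 (−0.80), Aldh1l1 (−0.76), Fcer1g (−0.65), Flt1 (−0.55) and Jun (−0.38). Of the genes that were lower, Pde6b, Draxin, Lmx1a, Tgm1 and Fcer1g were below background on all 8 C3H arrays.

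In 7 of 312 groups of 4 C3H arrays examined, 1 array lay far from its group by Dixon's ratio, for which chance alone gives about 1 in 20. On axotomy replicate 2, Slc4a1 was at 10.62, against 7.99 to 8.26 on the other axotomy arrays, and B2m at 14.20, against 14.05 to 14.06. Csf1 was at 10.14 on axotomy replicate 1, against 9.35 to 9.44 on the others. On naive replicate 1, 6430571L13Rik was at 8.78, against 7.63 to 7.82 on the other naive arrays, and Isg15 at 6.94, against 7.82 to 7.86. On naive replicate 4, Vapb was at 12.19, against 11.95 to 11.98, and Cd14 at 6.95, against 6.62 to 6.67.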

How the results depend on the processing

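The C3H response was called for 3211 genes, and the counts stayed between 2454 (only the C3H arrays in the fit) and 4262 (all 17616 kept probes) under every alternative except a test against a fold of 1.5, which asks for more than a change and gave 571 genes, 419 higher and 152 lower. The difference was called for 131 genes, with 83 under median scaling, 18 against a fold of 1.5 (13 higher and 5 lower) and 80 when C3H had also to be the highest or lowest of the 9 strains. Its counts with other settings for all arrays lay between 98 (above background on at least 35 arrays) and 173 (all kept probes, or a fixed block for runs of 8 neighbouring array columns), the deposited matrix giving 172. For the lower count under median scaling the cause was not tested. Leaving out each C3H array gave 2817 to 3181 genes for the response and 88 to 122 for the difference, and leaving out each other strain 118 to 162 for the difference. With the replicate block 3182 and 108 genes were called, and 3 of the 8 C3H arrays correlated best with an array of their own number. No value of a named gene reversed. The 127 named genes called in the response fell below the threshold in 135 gene and setting pairs, 50 of them with the fold of 1.5, and the 55 called in the difference in 190. Background limits the dim genes: Pde6b, Draxin, Lmx1a, Fcer1g and Tgm1 were not above it on any C3H array. Probe sequences were not used here, and whether a strain's own alleles under a probe move its signal was not tested.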

Other observations

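Further genes among the 131 with a called difference, chosen here after their values were seen, extend the account to neuronal signalling. Nms, which encodes the neuropeptide neuromedin S, averaged 9.83 ± 0.17 in C3H axotomy ganglia and 7.65 ± 0.18 in naive ganglia (SD, n = 4 arrays each). Its response of 2.18 was the highest of the 9 strains, against a mean of 1.18 in the others (difference 1.00, limma adjusted p 4.13e-05). Camk2n1, an inhibitor of CaM kinase II, averaged 12.18 ± 0.16 in C3H axotomy ganglia and 11.58 ± 0.15 in naive ganglia, a response of 0.60, against −0.04 in the other strains (limma adjusted p 2.48e-07). The neuropeptide Y receptor gene Npy1r rose by 1.59 in C3H, against 1.01 in the others, and the serotonin receptor gene Htr1d by 0.60, against 0.01. These means hide strains like C3H: for Htr1d CAST, NOD, DBA and AJ lay at 0.48 to 0.68 and 129, C57 and NZO at −1.02 to −0.57, and for Npy1r NOD lay at 1.74. Vgf, a precursor of several neuropeptides, rose by 1.46, against 1.98 in the others, a difference of −0.51. The growth factor gene Hbegf did not pass in C3H (response −0.27), against 0.41 in the others (difference −0.68). The actin regulator gene Limk1 averaged 11.52 ± 0.24 in C3H axotomy ganglia and 12.58 ± 0.20 in naive ganglia. Its response of −1.06, against −0.50 in the others, was the lowest of the 9 strains.

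Several genes of myeloid cells and of inflammatory cell death also rose more in C3H than in the mean of the other strains. Casp4, an inflammatory caspase, averaged 8.30 ± 0.36 in C3H axotomy ganglia and 6.64 ± 0.32 in naive ganglia (SD, n = 4 arrays each), with a response of 1.66, against 0.84 in the mean of the others, 1.56 in CAST and 1.49 in DBA. Its neighbour Casp1 had a response of 0.38, against a mean of −0.03 and 0.38 in CAST. Ms4a6d, a membrane protein gene of macrophages, averaged 10.63 ± 0.25 in axotomy ganglia and 6.35 ± 0.35 in naive ganglia, and the C3H response of 4.28 was the highest of the strains (difference 1.20, limma adjusted p 0.00103). Clec4n, which encodes the fungal sensor dectin-2, was below background in all C3H naive ganglia and rose at least 5.02-fold (difference 1.24). Its log2 response was 2.79 in C3H, against 2.34 in AJ and DBA, 2.20 in 129 and 1.63 to 1.75 in C57, NOD and NZO. In WSB and CAST it was 0.68 and −0.18. The high-affinity immunoglobulin receptor gene Fcgr1 rose by 2.45 in C3H, against 2.65 in CAST and 0.24 to 1.72 in the rest (difference 1.11), and Tspo, a mitochondrial protein often used to image activated macrophages, had a difference of 0.54. The summed macrophage markers are given in the results and their part in these values was not tested. The other kept probe of Ms4a6d gave a difference of 0.73, and those of Casp4 gave 0.42 and −0.16, none of which passed. Those of Tspo gave 0.30 and 0.67, of which only 0.67 passed. Other genes among the 131 rose less in C3H, such as Fgd2 (0.77, against 0.60 to 3.22 in the other strains) and Plekho2 (0.84, against 0.88 to 1.68).

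Ifi202b, an interferon-inducible DNA-binding protein gene, was above background on 1 of 4 axotomy and 1 of 4 naive C3H arrays. Its C3H response was 0.19, against a mean of 1.98 in the other strains (difference −1.79, SE 0.29, limma adjusted p 2.96e-05). C57 and CAST were close to C3H, at 0.19 and 0.08, and the other 6 strains lay between 1.57 and 3.41. Cmpk2, next to Rsad2 in the RefSeq order, averaged 10.48 ± 0.53 in C3H axotomy ganglia and 10.30 ± 0.15 in naive ganglia (SD, n = 4 arrays each). Its response of 0.17 did not pass in C3H, whereas the mean of the other strains was −0.75 and CAST was at 0.16 (difference 0.93). Speer1 and Speer3, members of a rodent gene family of the testis, rose at least 8.47-fold and 13.9-fold in C3H, yet less than in the mean of the other strains, with differences of −0.83 and −0.69. AJ rose less than C3H in both, with C3H responses of 4.03 and 4.52, against 3.83 and 4.28 in AJ. Taf7l, a transcription factor subunit of germ cells, rose at least 3.73-fold with a difference of −0.94, and AJ again rose less, with 2.82 in C3H, against 2.42 in AJ.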
